A study of Mus musculus with 2 samples.

Results

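Cystatins and stefins are small inhibitors of cysteine proteases of the cathepsin family. The genes described here were the 7 with the symbols Stfa1, Stfa2, Stfa3, Cstdc5, Cst3, Cst6 and Cstb, taken from the 32285 genes in the count tables. They were chosen by their levels over epithelial classes and their ratio between the libraries, so those values are given as a description with no test. No threshold on a value entered the choice.

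The data were single-cell RNA-seq libraries of back skin at postnatal day 1, 1 for each genotype. Both came from K14-Cre mice carrying a tdTomato reporter, from which live tdTomato-positive cells of the dermal and hair follicle fraction were sorted after the epidermis had been peeled off. The groups were WT and PADI4 cKO. The latter was K14-Cre;Padi4 fl/fl;tdTomato, in which the gene for peptidylarginine deiminase 4 is deleted in keratinocytes that have expressed Krt14. The number of animals and their sex were not given in the sources used here. With 1 library per genotype there was no spread between animals to test against. Every 95% interval below covers counting error only, as an exact Poisson interval for a level, an exact binomial interval for a share, and an exact conditional binomial interval for a ratio.

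Both families act by occupying the active site of papain-like proteases. Stefins (type 1) lack a signal peptide and work inside the cell, and mice carry a tandem array of stefin A genes that includes Stfa1, Stfa2, Stfa3 and Cstdc5. Cystatins of type 2, here Cst3 (cystatin C) and Cst6 (cystatin M/E), are secreted. Cystatin M/E restrains cathepsins L and V and legumain in the epidermis and the hair follicle, and stefin A proteins are building blocks of the cornified envelope.

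The libraries held 143938990 UMIs in 1786872 barcodes (WT) and 143945294 UMIs in 1787390 barcodes (PADI4 cKO). The cell filter kept 8070 and 7393 cells with medians of 14670 and 16208 UMIs, and 14 cell barcodes occurred in both. Of these, 7991 and 7348 were epithelial. Levels are CPM of the UMIs summed over cells. Padi4 had 98 UMIs (0.771 CPM) in WT and 91 UMIs (0.704 CPM) in PADI4 cKO, a log2 ratio of −0.13 with an interval of −0.56 to 0.30. The 3′ reads need not cover the deleted part, so they do not check the deletion, and that library is named below by its label alone. Sex-linked RNA set the libraries apart. In WT, 62.4% of the epithelial cells had UMIs of Y-linked genes without Xist and 26.0% had Xist alone, whereas in PADI4 cKO 98.3% had Xist alone and 0 cells had Y-linked UMIs alone. Sex, animal and genotype cannot be told apart over all cells, so values among cells with Xist alone are given below for the main ratios of the stefin A genes, Cst3 and Cst6. All other ratios are over all cells of a set only.

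Cells were assigned to classes by marker gates. The 10 classes that reached 50 cells per library were spinous epidermis (273 in WT and 111 in PADI4 cKO), junctional zone (363 and 243), Krt79-positive infundibulum and duct (57 and 69), sebocyte (129 and 143), outer root sheath (ORS; 1715 and 1592), lower proximal cup (LPC; 878 and 1075), matrix or germinative layer (1043 and 1018), inner root sheath (IRS; 412 and 301), medulla (161 and 151) and an Acta2-positive epithelial class (122 and 99). Some 34.2% and 33.9% of the epithelial cells passed no gate. The Krt79 gate did not isolate a duct population, since 50.9% and 72.5% of its cells lay in Leiden cluster 18, led by the IRS keratin genes Krt73, Krt71 and Krt25. Markers of immune cells, neutrophils and endothelium were close to 0, with summed levels of at most 1.27 CPM in the epithelial cells of either library. The leukocyte marker Ptprc and the neutrophil gene Retnlg had 0 UMIs in spinous-gated cells of both. Markers of fibroblasts summed to 8.0 and 7.72 CPM over epithelial cells of WT and PADI4 cKO, and those of melanocytes to 17.4 and 18.6 CPM. In spinous-gated cells the 5 fibroblast markers summed to 15.7 CPM in WT (54 UMIs, with Col1a1, Lum and Pdgfra at 0) and 5.40 CPM in PADI4 cKO (8 UMIs, with Col3a1 at 0 as well). Melanocyte markers stood there at 3.77 and 1.35 CPM, and endothelial markers at 0 and 2.70 CPM. The part of these cells in the ratios below was not tested.

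The 4 stefin A genes among the 7 lie in a 335.447 kb array on chromosome 16 (chr16:36119946-36455392, GRCm38/mm10) in which 10 annotated genes of the family were counted. Stfa1 spans chr16:36276951-36285373 on the plus strand. Cstdc5 (chr16:36359382-36367748), Stfa2 (chr16:36403992-36408457) and Stfa3 (chr16:36450537-36455392) lie on the minus strand. Cst3 lies at chr2:148871722-148875692, Cst6 at chr19:5344705-5349574 and Cstb, the gene of stefin B, at chr10:78425669-78427622. RefSeq promoters (GRCm38.p6) were found for 5 of the 7 genes, and those of Stfa1 and Cstdc5 were identical at 96.1% of 229 aligned bases, those of Stfa1 and Stfa3 at 85.1% of 242, and those of Stfa1 and Stfa2 at 83.6% of 238.

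The 30-base windows below end at a GAGGAGGAG shared by these 6 stefin A promoters, and they are shown because those of Stfa1, Cstdc5 and Stfa3 differed from those of 3 paralogues with at most 11 UMIs each in the WT epithelial cells. Starts are those of RefSeq, and the windows of Stfa1, Cstdc5 and Stfa2 lie inside the GENCODE gene spans given above. Capitals mark GATAAG, the core letters of sites for GATA factors.
Stfa1, chr16:36277076-36277105, plus strand: taatgtggaGATAAGacactagaggaggag
Cstdc5, chr16:36367592-36367621, minus strand: tatttcggaGATAAGacactagaggaggag
Stfa3, chr16:36455437-36455466, minus strand: tattgcagaGATAAGacattagaggaggag
Stfa2, chr16:36408405-36408434, minus strand: gactggctattatacattacagaggaggag
Stfa2l1, chr16:36156736-36156765, plus strand: ctgtggaaataatacatgatagaggaggag
Cstdc4, chr16:36184141-36184170, plus strand: tactgtggaaatactacattagaggaggag
The first 3 genes carried GATAAG, and Stfa2, Stfa2l1 and Cstdc4 did not. Csta1, another gene of the array, had 306 UMIs in WT, and its searched bases held neither GATAAG nor GAGGAGGAG. Those bases ended at CACTCATTT, which in the Stfa3 promoter below lies before both runs. The window of Csta1 thus stopped short of the matching stretch, and nothing is read from this absence. GAGGAGGAG occurred in 2.75% of all promoters. On either strand, GATAAG occurred in the 250 bases before the start of 2151 of 32851 RefSeq promoters (6.55%). The 120 bases before the start of Stfa3 (chr16:36455393-36455512, minus strand) show where this window lies relative to TTTAAAACC, the second run of capitals.
Stfa3 promoter: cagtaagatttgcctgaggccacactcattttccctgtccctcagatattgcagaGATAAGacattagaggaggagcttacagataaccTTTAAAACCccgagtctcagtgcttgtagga
TTTAAAACC occurred in 113 of the 32851 promoters (0.344%), searched on both strands, and in those of Stfa1, Cstdc5, Stfa3, Stfa2, Stfa2l1 and Cstdc4. TGANTCA, the core of AP-1 sites, occurred in 6.75% of the promoters and in none of the 5 found here. Both runs in capitals were picked after the sequences had been read, so the matches describe these promoters and show no bound factor.

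Because the stefin A transcripts resemble each other, a read could be shared. Of the 90-base stretches in the last 500 bases of their transcripts, 7.76% of those of Stfa1, 14.2% of those of Cstdc5 and 2.09% of those of Stfa2 also occurred in another gene, and none of those of Stfa3, Cst3, Cst6 or Cstb did. Levels of Stfa1 and Cstdc5 are therefore less certain than that of Stfa3, whose pattern over classes was close to theirs.

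Among the classes, Stfa1, Stfa3 and Cstdc5 were highest in spinous-gated cells in both libraries. In WT, Stfa1 stood at 657 CPM in spinous-gated cells (630 to 685), against 73.1 in junctional zone-gated cells and at most 5.08 in the other 8 classes. Stfa3 stood at 1682 CPM (1639 to 1726) in spinous-gated cells, 271 in junctional zone-gated cells and at most 30.1 elsewhere. Cstdc5 stood at 1757 CPM (1713 to 1801), 288 and at most 13.6. The intervals of the spinous and the junctional zone class did not overlap for any of the 3 genes, nor did those of the junctional zone class and the next.

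PADI4 cKO had the same first and second class at lower levels. Stfa1 stood at 119 CPM in spinous-gated cells (103 to 138) and 15.0 in junctional zone-gated cells, Stfa3 at 310 (282 to 340) and 35.3, and Cstdc5 at 449 (415 to 484) and 19.6. Stfa1 had 0 UMIs in the LPC-gated cells of this library, where 3 counts would make 0.131 CPM, against 3.31 CPM in WT. Stfa2 had 11 UMIs in all WT epithelial cells, 6 of them in spinous-gated cells, and 1 UMI in PADI4 cKO, too few for an order of classes.

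**Figure D1:**
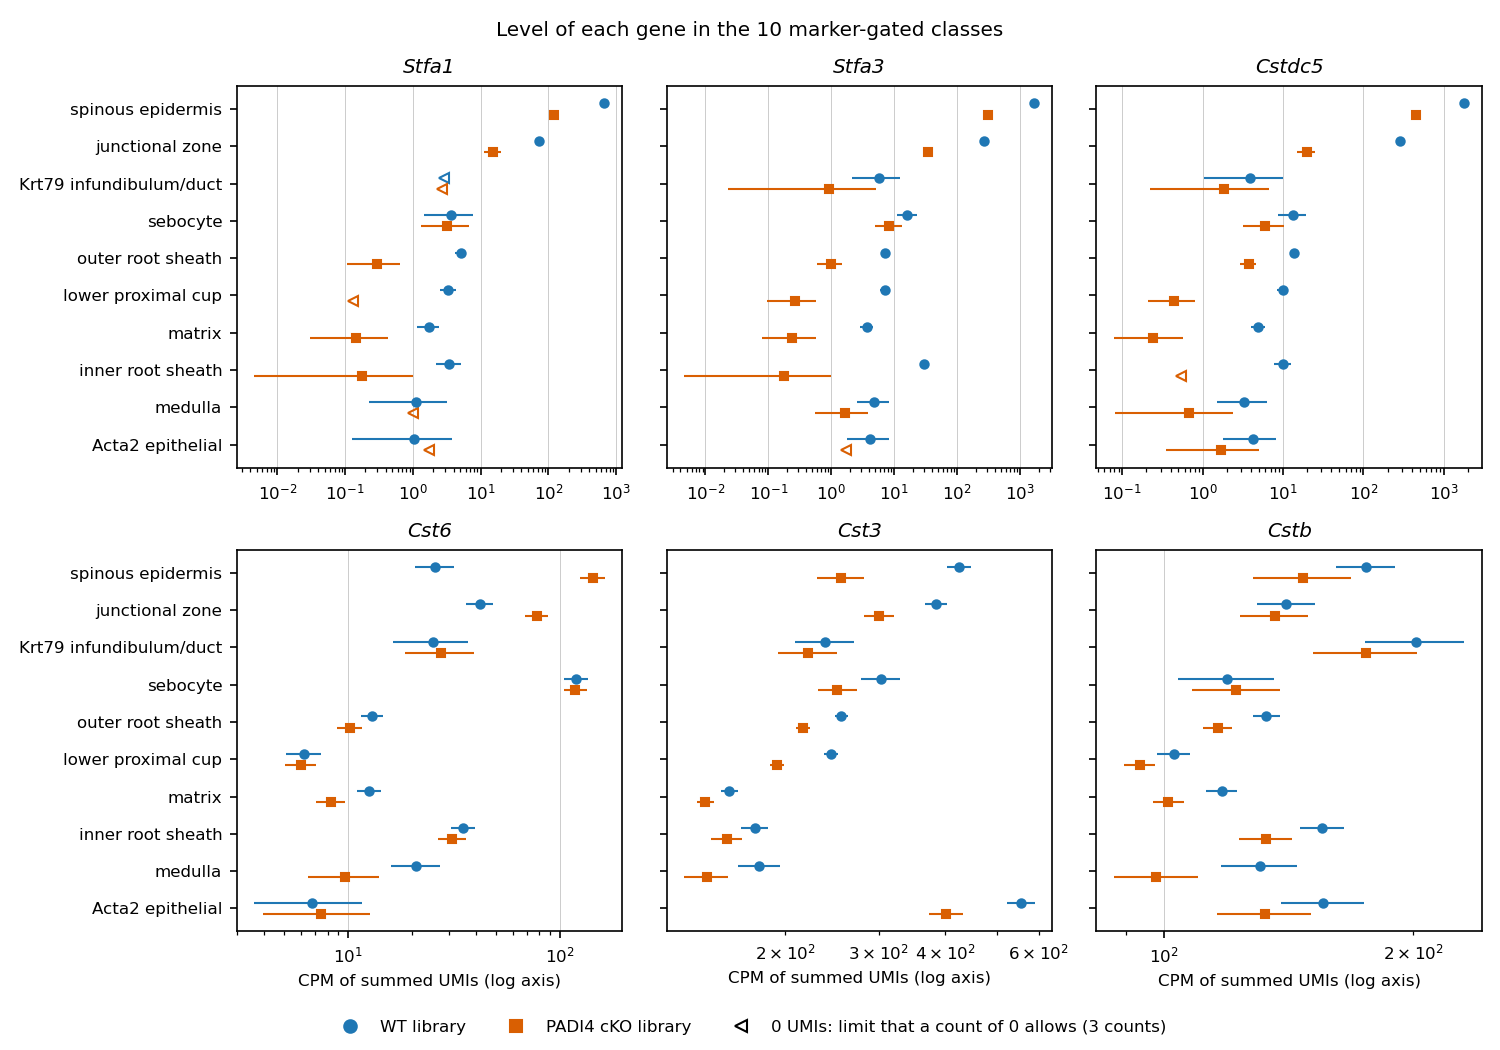
Level of 6 genes (CPM of summed UMIs, log axis, a different range in each panel) in the 10 marker-gated classes of the WT (blue circles) and PADI4 cKO (orange squares) libraries, with exact Poisson 95% intervals; open triangles mark 0 UMIs at the limit that 3 counts set. Stfa1, Stfa3 and Cstdc5 peaked in the spinous class (657, 1682 and 1757 CPM in WT), Cst3 in the Acta2-positive class and Cstb in the Krt79 class.

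Part of the low level outside these classes lay within what free RNA could give. Droplets with fewer than 100 UMIs held 145 CPM of Stfa1, 359 of Stfa3 and 438 of Cstdc5 in WT, and 8.30, 27.2 and 37.7 in PADI4 cKO. Hemoglobin and collagen UMIs, which keratinocytes should lack, put the share of free RNA in epithelial cells at no more than 2.0% and 2.44%. This comes to up to 2.91, 7.19 and 8.77 CPM in every WT class and 0.203, 0.665 and 0.921 CPM in PADI4 cKO classes. In WT matrix-gated cells Stfa3 stood at 3.68 CPM and 5.56% of cells had a UMI of it (median depth 16545 UMIs), against 59.0% of spinous-gated cells (median depth 12145). The LPC, Krt79, matrix, medulla and Acta2-positive classes of WT had 3.68 to 7.14 CPM of Stfa3, under that limit. The limit is 1 share for the whole library, and whether these levels came from free RNA was not tested.

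Over all epithelial cells the 3 stefin A genes were among the genes with the lowest ratios in the data. Stfa1 stood at 27.4 CPM in WT and 2.60 CPM in PADI4 cKO, a log2 ratio of −3.40 (−3.57 to −3.24). Stfa3 stood at 74.2 and 6.27 CPM (−3.56, −3.67 to −3.46) and Cstdc5 at 83.0 and 7.53 CPM (−3.46, −3.56 to −3.37). Their places from the lowest of 14900 genes with at least 100 UMIs were 14, 10 and 13.

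The other members were close to even. Cst3 stood at 235 and 190 CPM (−0.30, −0.33 to −0.28), Cstb at 127 and 109 CPM (−0.21, −0.24 to −0.18) and Cst6 at 17.1 and 18.7 CPM (0.13, 0.05 to 0.22). Among cells with Xist alone Cst6 stood at 14.4 and 18.8 CPM (0.38, 0.24 to 0.53). So 3 of the 6 members with at least 100 UMIs lay past 0.5 in size, all lower in PADI4 cKO, beside 5.21% of all genes past 0.5 and 3.61% below −0.5. The median ratio of all genes was −0.01. Since the members were chosen with this contrast known, nothing is read from the count.

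The spinous gate took its cells from different clusters in the 2 libraries. In WT 54.2% of them lay in cluster 6, led by Krt1, 16.8% in cluster 1, 7.33% in the Krt75 cluster 21 and 4.76% in the sebocyte cluster 5, and in PADI4 cKO the shares were 22.5%, 25.2%, 24.3% and 14.4%. Over all spinous-gated cells the ratios were −2.46 for Stfa1 (−2.69 to −2.24), −2.44 for Stfa3 (−2.58 to −2.30) and −1.97 for Cstdc5 (−2.09 to −1.85). Cst3 was lower too, at 426 and 254 CPM (−0.74, −0.91 to −0.58), so 5 of 6 members lay past 0.5 there, beside 15.8% of all genes. Cst6, the fifth, went the other way on a single cell, as described below. In junctional zone-gated cells the stefin ratios were −2.27, −2.94 and −3.86, and 4 of 6 members lay past 0.5, beside 9.15% of all genes. In ORS-gated cells the 3 stefin A genes were past it at −4.00, −2.86 and −1.87, beside 5.17% of all genes. Of the 76 UMIs of Cstdc5 in the ORS-gated cells of PADI4 cKO, 60 came from 1 cell. In LPC-gated cells 2 of 5 members were past 0.5 (Stfa3 at −4.66 and Cstdc5 at −4.43), beside 4.22% of all genes. The WT level of Stfa3 there, 7.14 CPM, was under the free RNA limit of 7.19, that of Cstdc5, 9.89 CPM, was near its limit of 8.77, and the free RNA itself held less of both genes in PADI4 cKO, so nothing is read from the LPC ratios. The Stfa3 level of 7.24 CPM in ORS-gated WT cells was as close to that limit. In IRS-gated cells 1 of 4 members was past 0.5, beside 3.19% of all genes. That one was Stfa3 at −6.80, with 176 of its 202 WT UMIs in 1 cell. In the Acta2-positive, Krt79 and medulla classes 0 of 2 members with at least 100 UMIs were past 0.5, and in sebocytes 0 of 3, beside 5.42%, 11.4%, 9.05% and 6.36% of all genes.

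The spinous-gated cells were not alike. In WT the cells held a median of 0 UMIs of Stfa1, 2 of Stfa3 and 1 of Cstdc5, while the highest cells held 153, 282 and 375. In PADI4 cKO all 3 medians were 0, and the highest cells held 57, 85 and 195. Of the 273 WT cells, 132 held 10 or more UMIs of the 3 genes together, 56 held 1 to 9 and 85 held none. Of the 111 PADI4 cKO cells, 21 held 10 or more and 77 held none. Both libraries thus had cells without the genes beside cells rich in them, and the rich cells were the smaller share in PADI4 cKO. These shares mix cells of both sexes in WT, where 212 had Y-linked UMIs alone and 36 Xist alone. In PADI4 cKO 107 had Xist alone.

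Summed over spinous-gated cells, those rich in stefin A UMIs had more of the suprabasal keratins Krt1 and Krt10, which are themselves markers of the gate. Most stefin-rich cells had no Krt1 UMI. Over all epithelial cells, 93 of the 297 in WT (31.3%) and 9 of the 40 in PADI4 cKO (22.5%) had one. In WT, Krt1 stood at 1990 CPM in spinous-gated cells with 10 or more stefin UMIs and 12.8 CPM in those with none, and Krt10 at 1934 and 66.8 CPM. In PADI4 cKO Krt1 stood at 608 and 5.61 CPM and Krt10 at 370 and 76.7. The cells without stefin UMIs instead had Krt75, a keratin of the companion layer and medulla, at 590 CPM in WT and 705 CPM in PADI4 cKO, against 21.8 and 0 in the rich cells. The gate held these Krt75-rich cells through Dmkn (1296 and 1313 CPM) and Krtdap (664 and 659 CPM), so its name applies best to the stefin-rich cells. Granular layer genes were low even there, with Casp14 at 17.9 CPM, Lor at 7.27 and Flg at 0 UMIs in WT. Among WT spinous-gated cells, the 80 with Krt1 had 1385 CPM of Stfa1, 3374 of Stfa3 and 4018 of Cstdc5, and the 193 without had 322, 904 and 717. In PADI4 cKO the 14 with Krt1 had 693, 1201 and 2233 CPM, and the 97 without had 38.5, 184 and 197.

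**Figure D2:**
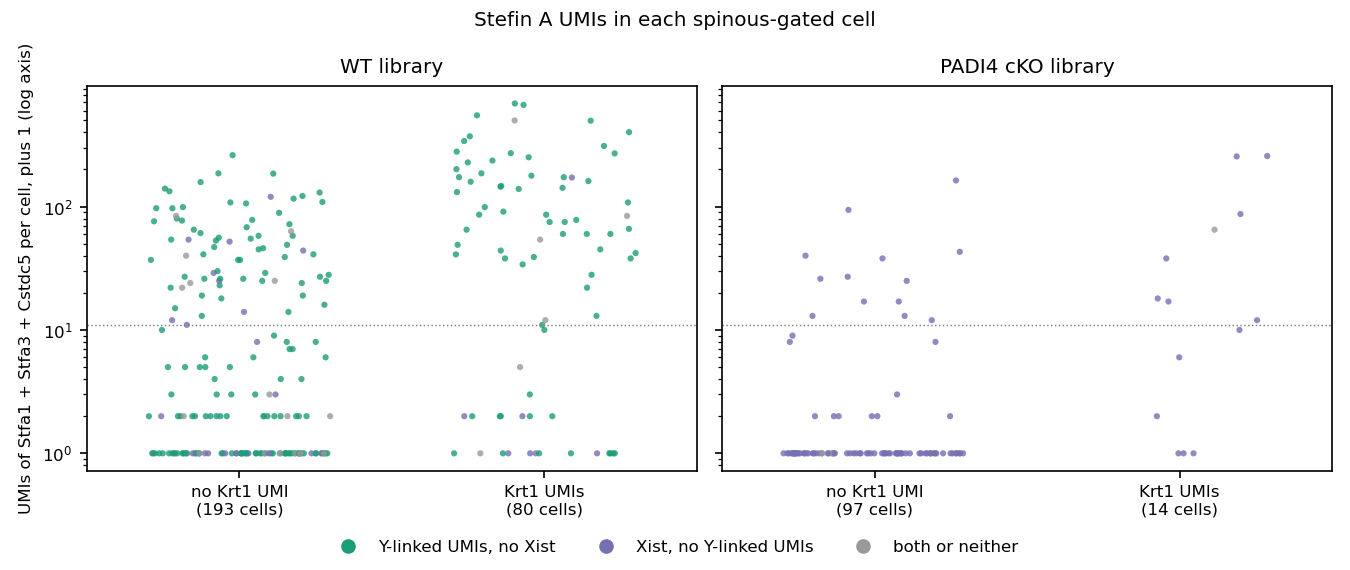
UMIs of Stfa1, Stfa3 and Cstdc5 together plus 1 (log axis) in each spinous-gated cell, for cells without and with Krt1 UMIs, in the WT (left) and PADI4 cKO (right) libraries; colour gives the sex-linked RNA, points are spread sideways at random, and the dotted line marks 10 UMIs. WT had 132 of 273 cells at or above the line, mostly cells with Y-linked UMIs, and PADI4 cKO had 21 of 111.

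Few cells carried most of the stefin A UMIs. Over all epithelial cells, 297 cells in WT (3.72%, 3.31 to 4.15%) and 40 in PADI4 cKO (0.544%, 0.389 to 0.741%) held 10 or more, and they carried 92.2% and 86.8% of the UMIs of the 3 genes. All 3 genes were found in 237 of the 297 and 18 of the 40. Leiden cluster 6, led by Krt1, Clca3a2, Ahnak2, Ly6d and Krtdap, held 212 and 23 of these cells, and the sebocyte cluster 5 held 16 and 15. Of the Cstdc5 UMIs of PADI4 cKO, 526 lay in cluster 5 and 330 in cluster 6. Cluster 6 itself had 363 WT and 60 PADI4 cKO cells. The share of stefin-rich cells in WT was 0.866% of the 2078 cells with Xist alone and 4.95% of the 4988 cells with Y-linked UMIs alone, and in PADI4 cKO it was 0.540% of the 7226 cells with Xist alone.

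The stefin levels of the WT library therefore differed between its own cells. Stfa1 stood at 37.3 CPM in cells with Y-linked UMIs and 5.44 CPM in cells with Xist alone, Stfa3 at 102 and 14.5 CPM, and Cstdc5 at 116 and 14.6 CPM. Cells with Xist alone in PADI4 cKO had 2.23, 6.28 and 7.65 CPM. The ratio among cells with Xist alone was −1.29 for Stfa1 (−1.57 to −1.0), −1.21 for Stfa3 (−1.37 to −1.03) and −0.93 for Cstdc5 (−1.09 to −0.77), and 4.87% of all genes were past 0.5 in this set. With free RNA left in the counts, the direction over all cells was kept in each of the 3 genes. The size was less than that between the 2 kinds of WT cell. The free RNA limits were 2.91, 7.19 and 8.77 CPM in WT and 0.203, 0.665 and 0.921 CPM in PADI4 cKO. The part of free RNA in the ratios among cells with Xist alone was not tested. Of the 447 Stfa3 UMIs in WT cells with Xist alone, 147 came from 1 cell, and without the highest cell of each library the 3 ratios were −1.34 (−1.65 to −1.03), −0.79 (−0.99 to −0.59) and −1.13 (−1.30 to −0.95).

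Restricting to spinous-gated cells with Xist alone (36 WT and 107 PADI4 cKO cells) gave −1.41 for Stfa1 (−1.81 to −1.01), −0.98 for Stfa3 (−1.20 to −0.75) and 0.09 for Cstdc5 (−0.15 to 0.34), beside 13.7% of all genes past 0.5. The interval of Cstdc5 included 0, and 195 of its 665 UMIs in these PADI4 cKO cells came from 1 cell. The ratio of Stfa3 rested on 1 WT cell, which held 147 of its 256 UMIs. Without the highest cell of each library Stfa3 stood at 271 and 255 CPM (−0.09, −0.40 to 0.23) and Cstdc5 at 356 and 331 CPM (−0.11, −0.38 to 0.17), so neither interval left out 0, and Stfa1 stood at 169 and 47.8 CPM (−1.82, −2.33 to −1.31). In junctional zone-gated cells with Xist alone Stfa1 stood at 29.1 CPM in WT and 15.2 CPM in PADI4 cKO, Stfa3 at 92.3 and 35.6, and Cstdc5 at 132 and 19.8, while WT cells with Y-linked UMIs stood at 86.9, 325 and 342. Within cluster 6 the ratios were −0.87, −1.21 and −1.66 over all its cells, where 21.3% of all genes were past 0.5. Among its cells with Xist alone (17 and 58) they were 0.08 (−0.35 to 0.54), −0.78 (−1.0 to −0.56) and −0.63 (−0.90 to −0.35). In WT 1 cell held 147 of the 264 Stfa3 UMIs here, and 188 of the 330 Cstdc5 UMIs of PADI4 cKO came from 1 cell. Without the highest cell of each library these ratios were 0.06 (−0.46 to 0.63), 0.02 (−0.28 to 0.33) and −1.55 (−1.90 to −1.19).

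Beside 7.29% of all genes past 0.5, cluster 1 had lower levels of all 3 in PADI4 cKO. In this cluster, led by Nebl, Cdh13 and Ly6d, the ratios were −3.08, −4.16 and −3.84, on 126 and 11 UMIs of Stfa1, 475 and 20 of Stfa3 and 343 and 18 of Cstdc5. Its WT cells with Xist alone stood at 2.13, 7.81 and 4.26 CPM, against 1.60, 2.90 and 2.61 CPM in PADI4 cKO and 16.7, 64.6 and 42.8 CPM in WT cells with Y-linked UMIs. The free RNA limits were 2.91, 7.19 and 8.77 CPM in WT and 0.203, 0.665 and 0.921 CPM in PADI4 cKO. Nothing is therefore read from the levels among cells with Xist alone in cluster 1. In cluster 5, a sebocyte cluster led by Aldh3a1, Zfpm2 and Pparg, Stfa3 and Cstdc5 were higher in PADI4 cKO. Stfa3 stood at 39.2 and 61.5 CPM (0.65, 0.37 to 0.93) and Cstdc5 at 69.7 and 118 CPM (0.75, 0.55 to 0.96), while Stfa1 stood at 22.2 and 17.7 CPM (−0.33, −0.78 to 0.12). In cluster 5, 195 of the 526 Cstdc5 UMIs of PADI4 cKO came from 1 cell, and 5.0% of all genes were past 0.5. Without the highest cell of each library Cstdc5 stood at 60.9 and 74.2 CPM and Stfa3 at 32.5 and 47.1. Among cells of cluster 5 with Xist alone Stfa3 stood at 54.9 and 61.9 CPM (0.16, −0.31 to 0.69) and Cstdc5 at 75.4 and 118 CPM (0.64, 0.25 to 1.08). In ORS-gated cells with Xist alone Stfa3 stood at 2.97 and 0.994 CPM and Cstdc5 at 5.60 and 3.78 CPM. Both WT values were under the free RNA limits of 7.19 and 8.77 CPM, so nothing is read from them.

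Without clusters 6 and 16 the ratios over the remaining cells were −2.20 (−2.53 to −1.89), −2.12 (−2.30 to −1.95) and −1.12 (−1.25 to −0.98), beside 4.36% of all genes past 0.5. Among such cells with Xist alone they were −1.94 (−2.36 to −1.51), −1.0 (−1.27 to −0.72) and −0.41 (−0.64 to −0.18). The WT levels over the remaining cells were 3.59, 11.3 and 10.8 CPM, beside free RNA limits of 2.91, 7.19 and 8.77 CPM. In PADI4 cKO the levels were 0.777, 2.58 and 5.0 CPM, beside limits of 0.203, 0.665 and 0.921 CPM. The part of free RNA in these ratios was not tested. Cluster 16, with 45 WT cells and 0 PADI4 cKO cells, was led by Lsamp, Meis2 and Kcnip4 and had no class name. It stood at 151 CPM of Stfa1, 647 of Stfa3 and 2422 of Cstdc5, and all 45 cells had a UMI of Cstdc5.

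**Figure D3:**
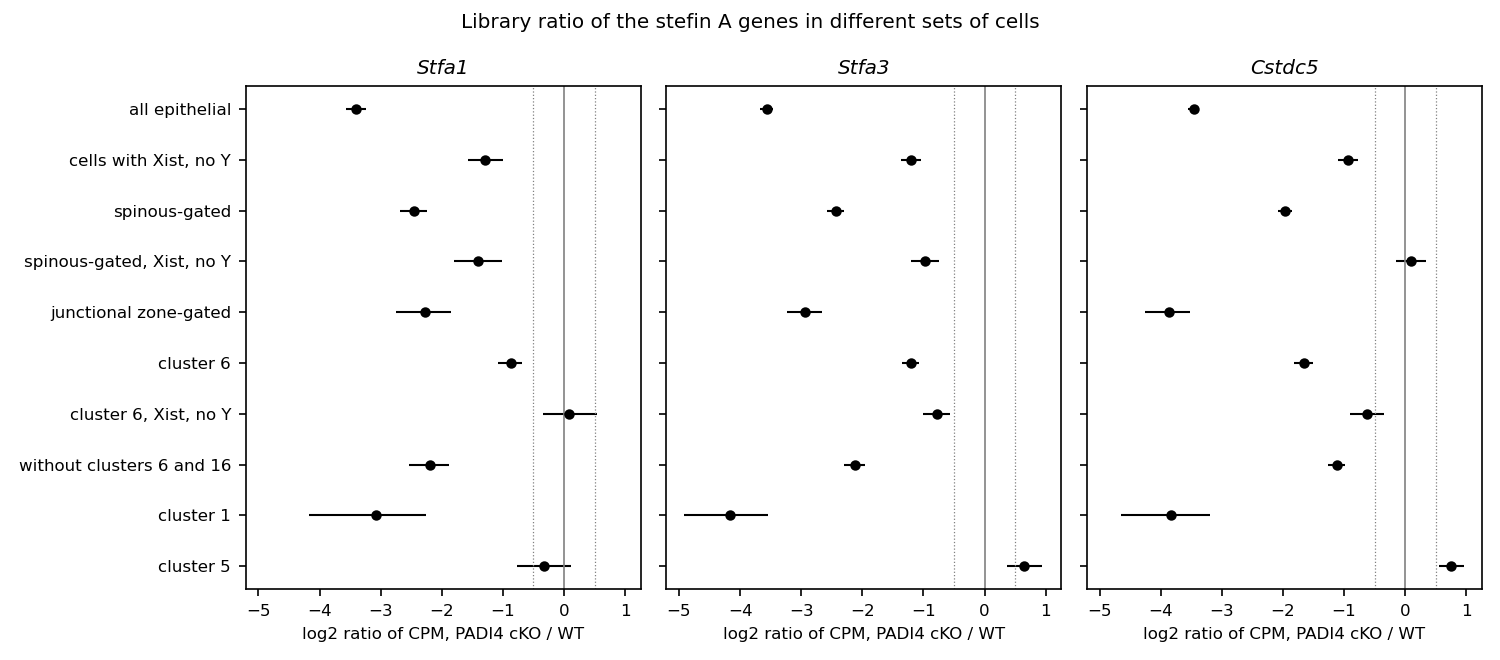
Log2 ratio of CPM, PADI4 cKO over WT, of Stfa1, Stfa3 and Cstdc5 in 10 sets of cells, with exact conditional binomial 95% intervals; the solid line marks 0 and the dotted lines mark 0.5 in either direction. The ratios ran from −3.40, −3.56 and −3.46 over all epithelial cells to −1.29, −1.21 and −0.93 among cells with Xist alone, and in cluster 5 Stfa3 and Cstdc5 lay above 0.

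Over all epithelial cells the 3 genes stood in similar proportions to each other in both libraries. In WT epithelial cells Stfa1, Stfa3 and Cstdc5 made up 14.9%, 40.2% and 44.9% of their joint 23483 UMIs, and in PADI4 cKO 15.8%, 38.3% and 45.9% of 2120. Each UMI counts 1 molecule at its 3′ end, so no length correction was applied. Single sets of cells departed widely from this. Among the classes and clusters 1, 5, 6, 16 and 18, counted where a library had at least 100 UMIs of the 3 genes together, Stfa1 ran from 4.69% in cluster 16 to 22.6% in cluster 6 of PADI4 cKO, Stfa3 from 19.6% in ORS-gated cells of PADI4 cKO to 69.2% in IRS-gated cells of WT, and Cstdc5 from 22.9% in the latter to 75.2% in cluster 16. In spinous-gated WT cells thinned to 2000 UMIs, 88.5% of the 87 cells with Stfa1 also had Cstdc5, against 45.8% of all cells of the class.

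Cst6, the gene of cystatin M/E, was a sebocyte gene. Its level in sebocyte-gated cells was 120 CPM in WT (105 to 136) and 118 CPM in PADI4 cKO (104 to 134), a log2 ratio of −0.02 (−0.28 to 0.25). In WT the next class was the junctional zone at 41.9 CPM, which overlapped that of the IRS at 35.0, and the lowest were the Acta2-positive class at 6.77 and the LPC at 6.18. Sebocyte-gated cells without a UMI were still the majority, since 33.3% and 31.5% of them had one, against 10.8% and 11.3% of LPC-gated cells, which were deeper (medians of 18802 and 19681 UMIs against 11872 and 12396).

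In PADI4 cKO the class with the highest Cst6 was instead the spinous one, at 142 CPM against 25.8 in WT (2.46, 2.10 to 2.84). Of its 211 UMIs, 187 came from 1 cell, and without the highest cell of each library the levels were 16.4 and 21.3 CPM with a ratio of −0.36 (−1.11 to 0.30). That cell was among the 21 with 10 or more stefin A UMIs. In junctional zone-gated cells Cst6 stood at 77.6 and 41.9 CPM (0.89, 0.61 to 1.17), with 125 of 253 PADI4 cKO UMIs and 50 of 181 WT UMIs in 1 cell each, and at 39.7 and 30.4 CPM without them (0.39, 0.02 to 0.75). Sebocyte-gated cells kept about 101 and 102 CPM without their highest cells. In cluster 5 Cst6 stood at 41.7 CPM in WT and 78.9 CPM in PADI4 cKO without their highest cells (0.92, 0.66 to 1.19). Cst6 was lower in PADI4 cKO in matrix-gated cells, at 8.28 and 12.6 CPM (−0.60, −0.90 to −0.31), where it was the one member of 3 past 0.5, beside 3.11% of all genes. Among cells with Xist alone it stood at 8.37 and 12.2 CPM there (−0.55, −0.98 to −0.09), and at 116 and 96.3 CPM in sebocyte-gated cells (0.25, −0.23 to 0.80).

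**Figure D4:**
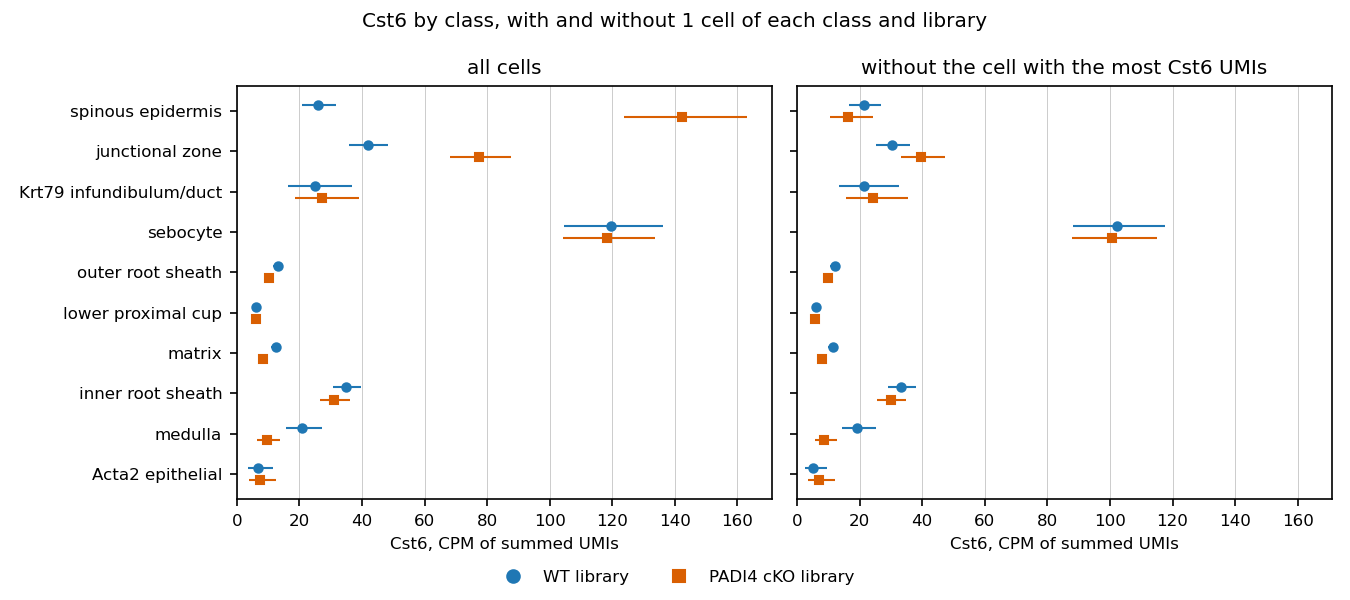
Cst6 (CPM of summed UMIs, linear axis from 0) in the 10 classes of both libraries with exact Poisson 95% intervals, over all cells (left) and without the cell with the most Cst6 UMIs in each class and library (right). The spinous level of PADI4 cKO moved from 142 to 16.4 CPM, and the sebocyte class was the highest in both libraries on the right.

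Cst3, the gene of the secreted cystatin C, was found in every class. It led in the Acta2-positive class, at 555 CPM in WT (523 to 590) and 402 CPM in PADI4 cKO (372 to 432), where all 122 and all 99 cells had a UMI of it. In WT the spinous class followed at 426 CPM, then the junctional zone at 385 and the sebocytes at 302, each apart from its neighbour by counting error, and the matrix was the lowest at 157. In PADI4 cKO the junctional zone came second at 300 CPM, and the spinous class at 254 overlapped the sebocytes at 251. The highest class stood 3.54 times (WT) and 2.84 times (PADI4 cKO) above the lowest. The ratio of the libraries was below 0 in all 10 classes, from −0.11 in the Krt79 class (−0.37 to 0.16) to −0.74 in the spinous class, the one class past 0.5. Among spinous-gated cells with Xist alone the ratio of Cst3 was −0.11 (−0.41 to 0.22), and over all cells with Xist alone it was −0.11 (−0.15 to −0.07).

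Cstb, the gene of the cytosolic stefin B, varied least. It ranged from 201 CPM in the Krt79 class (175 to 230) to 103 in the LPC in WT, and from 175 (151 to 202) to 93.5 in PADI4 cKO, 1.96 and 1.87 times. Its levels in neighbouring classes overlapped except at the matrix and the LPC in WT, and at the ORS and the matrix in PADI4 cKO. No class was past 0.5, and the ratios ran from −0.41 in the medulla (−0.64 to −0.19) to 0.04 in sebocytes (−0.22 to 0.30). The leading class was the same in both libraries for 5 of the 6 members ranked, all but Cst6, beside 49.1% of 13400 genes.

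Genes with the most similar pattern over the 10 classes were found by the lower of the Pearson correlations in the 2 libraries. For the stefin A genes these were mainly each other. Stfa1 was closest to Cstdc5 (0.963), Stfa3 (0.961) and Gm48893 (0.947), Stfa3 to Stfa1, Cstdc5 (0.959) and Krt77 (0.940), and Cstdc5 to Stfa1, Stfa3 and Krt77 (0.940). Cst3 was closest to Vamp8 (0.918), Laptm4a (0.912) and Lrch3 (0.905). Cst6 was closest to Atp6v1h (0.926), Dennd4c (0.879) and Hdac4 (0.869), and Cstb to Klc3 (0.911), Ctnnd1 (0.905) and Cast (0.891). The classes share their libraries and depth, so these correlations are a description.

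Among the proteases that cystatins inhibit and their partners, 10 of 12 listed genes had at least 100 UMIs over all epithelial cells, and 0 of 10 were past 0.5 in either direction. No test across genes was run. Cathepsin L (Ctsl), a target of cystatin M/E, stood at 178 CPM in WT and 213 CPM in PADI4 cKO (0.26, 0.23 to 0.28), cathepsin B (Ctsb) at 146 and 131 (−0.16, −0.19 to −0.13), legumain (Lgmn) at 28.3 and 25.1 (−0.18, −0.24 to −0.11), and the transglutaminase gene Tgm5 at 22.6 and 29.3 (0.38, 0.31 to 0.45). In junctional zone-gated cells 3 of 8 were past 0.5, Ctsl at 148 and 247 CPM (0.74, 0.59 to 0.89), Tgm5 (0.57, 0.10 to 1.03) and Ctsh (−0.62, −1.10 to −0.18). In spinous-gated cells Ctsz was the one of 7, at 26.4 and 39.2 CPM (0.57, 0.07 to 1.06). In ORS-gated cells Ctsh (0.52, 0.29 to 0.74) was the one of 8. Lgmn was past 0.5 in the Acta2-positive class (−0.56, −1.05 to −0.08) and, with the other sign, in the Krt79 class (0.69, 0.10 to 1.32). By class, Ctsc (cathepsin C) was high in the IRS, at 203 and 193 CPM, and in the Krt79 class, at 189 and 267, and Ctsl was low in sebocytes, at 58.0 and 56.8.

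Of 27 other genes of the cystatin superfamily that were listed, 21 were in the count tables and 3 had at least 100 UMIs. Csta1, a stefin A gene of the same array, had 306 UMIs in WT and 62 in PADI4 cKO (−2.32, −2.74 to −1.93) and followed the 3 stefin A members, at 38.6 and 10.8 CPM in spinous-gated cells. In those with 10 or more stefin UMIs it stood at 72.7 and 55.0 CPM, against 0.983 and 0.936 CPM in those with none. Cast, the gene of the calpain inhibitor calpastatin, stood at 78.3 and 66.6 CPM, and Camp, the cathelicidin gene, at 0.676 and 0.588. The remaining 18 had at most 29 UMIs in a library.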

How the data were processed

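Live tdTomato-positive cells of postnatal day 1 back skin were profiled as single cells in 2 libraries, 1 per genotype. The authors deposited counts of UMIs for every barcode before removal of free RNA, made with Cell Ranger 7.1.0 per the file headers and mm10 per the submitters' processing notes, which also name Scanpy. CellBender and Harmony, which the authors applied later, were not run here, so free RNA remains in the counts. Cells were kept at 2000 to 60000 UMIs, 1000 to 8000 genes, up to 20% mitochondrial and 1% hemoglobin UMIs, and a ribosomal share within the 5th to 99th percentile. Depth per cell was a median of 14670 and 16208 UMIs.

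Cells were clustered with Scanpy 1.11.5 (Leiden resolution 1.0, members and relatives left out of the variable genes), and epithelial cells were assigned to classes by scored marker lists with a minimum of 0.25 and a lead of 0.05. Gates and clusters are rebuilt, so their names may differ from those of the study. Scrublet called 3.20% and 4.04% of epithelial cells doublets, which were kept. UMIs were summed per class and library and given as CPM. The log2 ratio added 0.5 UMI to each sum and used genes with at least 100 UMIs, and 0.5 was the size named as past. The ratio was tried on simulated Poisson counts drawn from the pooled totals. These lack the clumping of UMIs in single cells, so the trial does not check the intervals for these data. No test across animals was possible.

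The members, classes and gene lists were chosen with earlier results of these data known. The genes named are the 7 members, the listed proteases, partners and cystatin genes, and, for each member with at least 200 UMIs, the 3 genes most like it over the classes. Krt75, Krt1 and Krt10, the other markers in spinous-gated cells and the leading genes of clusters are named beside them as markers. Promoter sequences are from RefSeq, gene positions from the GENCODE annotation of GRCm38, in which all 7 members matched by identifier.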

Additional observations from a re-analysis of the deposited data

Results flagged for a closer look

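In 5 cases the ratio of the libraries (log2, PADI4 cKO over WT) lay on opposite sides of 0 in 2 sets of cells, each with a counting interval that left out 0. With 1 library per genotype none of these differences was tested. Cst6 stood at 2.46 in spinous-gated and −0.60 in matrix-gated cells, 3.06 apart, with 187 of the 211 spinous UMIs of PADI4 cKO in 1 cell. Cst6 stood at 3.68 in cluster 6 and −1.62 in cluster 14, an ORS cluster, 5.29 apart, and 1 cell held 187 of the 232 UMIs of PADI4 cKO in cluster 6. Without the highest cell of each library the ratio in cluster 6 was 2.11 (1.53 to 2.66). Stfa3 stood at 0.65 in the sebocyte cluster 5 and −7.00 in the IRS cluster 18, 7.65 apart, where cluster 18 held 219 UMIs in WT and 1 in PADI4 cKO. Of these 219 UMIs, 176 came from 1 cell. Cstdc5 stood at 0.75 in cluster 5 and −4.89 in cluster 7, 5.65 apart, where cluster 7 held 101 UMIs in WT and 3 in PADI4 cKO. Without the highest cell of each library the ratio in cluster 5 was 0.28 (0.05 to 0.52). The free RNA limit of Cstdc5 was 8.77 CPM in WT and 0.921 CPM in PADI4 cKO, and its part in cluster 7 was not tested. Cstb stood at 0.20 in cluster 5 (0.03 to 0.37) and −0.28 in cluster 21 (−0.55 to −0.02), 0.48 apart.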

How the results depend on the processing

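No paired analysis was possible because there was 1 library per genotype. Members above 5 CPM in the epithelial cells of both libraries numbered 5, and 3 without cluster 6 as well as 3 without clusters 6 and 16; the other 9 alternatives gave 5. Members past 0.5 in the ratio of the libraries numbered 3 under all 11 alternatives. Members with the same leading class numbered 5, with 4 for classes from Leiden clusters and for a stricter gate, and 6 for cells thinned to 2000 UMIs, without cluster 6, without clusters 6 and 16 and without the highest cells. The alternatives without clusters and without the highest cells were chosen after seeing the data. Of 199 single levels and ratios under an alternative, 113 stayed within their interval and 86 left it. Of the ratios past 0.5 in size among these, taken over all epithelial cells or spinous-gated cells with Xist alone, 0 changed sign. Ratios of other sets were not among them, and that of Cst6 over all spinous-gated cells went from 2.46 to −0.36 without the highest cells. The ratio of Cstdc5 in spinous-gated cells with Xist alone, which was not past 0.5, went from 0.09 to −0.11 without the highest cells. For Stfa1, Stfa3 and Cstdc5 the ratio over all epithelial cells was nearest 0 among cells with Xist alone (−1.29, −1.21 and −0.93) and ran to −3.60, −3.68 and −3.73 without the highest cells. In WT spinous-gated cells Stfa3 ranged from 207 CPM without clusters 6 and 16 to 2517 CPM under the stricter gate. The cause of these moves was not tested.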
